A study of Mus musculus with 39 samples.

Results

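The 35 genes described here encode the proteins by which heart muscle takes up, activates, stores and oxidises fatty acids. They were chosen by symbol from a list written by pathway step, and 35 of 35 were found among the 38293 genes of the count table and passed the filter on low counts in each of the 12 comparisons. The 9 steps are uptake (5 genes), activation and the carnitine shuttle (5), control by malonyl-CoA (2), the beta-oxidation spiral (9), auxiliary enzymes (3), electron transfer (3), thioesterases (3), storage and lipolysis (3), and fuel choice with uncoupling (2). RNA was sequenced in bulk from left ventricles of 39 C57BL6/J mice in 11 groups. The allele under study, R14del, lacks 1 arginine of phospholamban (Pln), a small membrane protein of heart muscle that slows calcium uptake by the sarcoplasmic reticulum. Without surgery there were 4 wild type and 4 homozygous hearts (Pln R14del/R14del) at 3 weeks of age, 4 and 4 at 5 weeks, and 3 wild type, 4 heterozygous (Pln wt/R14del) and 4 homozygous hearts at 8 weeks. With surgery, all in wild type males operated at 12 weeks of age, there were 4 hearts taken 3 days after temporary ligation of the left anterior descending coronary artery (ischemia-reperfusion, labelled 12 weeks) and 4 taken 8 weeks after permanent ligation (infarction, labelled 20 weeks). Sham surgery gave 2 hearts labelled 12 weeks and 2 labelled 20 weeks, used together as 4 controls. Tissue from the operated hearts came from outside the infarct rather than the scar. The injury models differ in both age and time since surgery, and these and the type of ligation cannot be told apart.

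Fatty acids are the main fuel of the adult heart. They are freed from circulating lipoproteins at the capillary wall, enter the cardiomyocyte through transport proteins, are joined to coenzyme A, cross the mitochondrial membranes as carnitine esters, and are shortened in the matrix by repeated cycles of oxidation, hydration, oxidation and thiolysis whose electrons pass to the respiratory chain. Many of these genes are known targets of the nuclear receptor PPAR alpha with its partner RXR, of the estrogen-related receptors and of the coactivator PGC-1 alpha, and their RNA is known to fall in failing and hypertrophied hearts.

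Library totals ran from 9402904 to 19320791 counts, and values are given as CPM, counts per 1000000 reads counted in the library. In every group the cardiomyocyte markers were abundant (8 genes summed to at least 28900 CPM), while the 7 adipocyte markers summed to at most 28.1 CPM outside the infarction group. The labels name no separate animals beyond replicate numbers, so each p-value measures the spread among these libraries only. Counts per gene do not report the deletion of 1 codon, so the genotype labels were not checked from Pln. Counts of mitochondrially encoded genes made up 14.6% to 15.9% of the homozygous libraries at 5 weeks against 19.9% to 21.1% of the wild type ones, and 8.27% to 15.5% against 15.2% to 16.5% at 8 weeks. Heterozygous replicate 2 stood apart from its group, and its values are given with and without it.

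Measured per kilobase of annotated exon, the means of the 3 wild type hearts at 8 weeks ranked Fabp3 first at 1581 CPM per kilobase, followed by Acaa2 (625.6), Acadl (534.9), Etfb (521.8) and Lpl (505.7). At the low end stood Cpt1a (9.10), Cpt1b (6.10), Angptl4 (3.33) and Acot1 (2.52). These levels depend on the annotation. Cpt1b shares 81.4% of its exonic bases with another annotated gene on the same strand and Etfb 58.3%, and the handling of reads in shared exons is not given in the sources used here. Levels and changes of both are therefore uncertain. Of the 50-base words of Acot1 and Acot2, neighbours on chromosome 12, 19.2% and 27.7% also occur in other genes, most often in each other. Fabp3 shares 29.2% of its words with other genes, most often a pseudogene, and Hadhb shares 19.7% of its words with other annotated genes. Acadvl overlaps an antisense gene over 42.9% of its exonic bases.

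The set took a smaller share of the RNA in homozygous than in wild type hearts at 5 and 8 weeks. The 35 genes made up 1.83% to 2.13% of counts in wild type hearts at 3 weeks and 1.49% to 2.03% in homozygous hearts of that age, with replicates 1 and 3 lowest. At 5 weeks the wild type libraries held 2.03% to 2.15% and the homozygous ones 1.30% to 1.47%, with a gap between the groups. At 8 weeks the shares were 2.32% to 2.43% in wild type hearts, 1.79% to 2.34% in heterozygous hearts and 1.21% to 1.56% in homozygous hearts. The low heterozygous value is replicate 2, and the other 3 lay between 2.29% and 2.34%. Shams held 2.17% to 2.58%, hearts after ischemia-reperfusion 1.75% to 2.30% and hearts after infarction 1.68% to 2.19%. In bulk tissue, fewer cardiomyocytes and less of an RNA per cardiomyocyte cannot be told apart. The summed level of the 8 cardiomyocyte markers was lower too, 38510 to 44960 CPM in homozygous against 55610 to 57430 CPM in wild type hearts at 5 weeks, and its part in the members' changes was not tested.

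**Figure D1:**
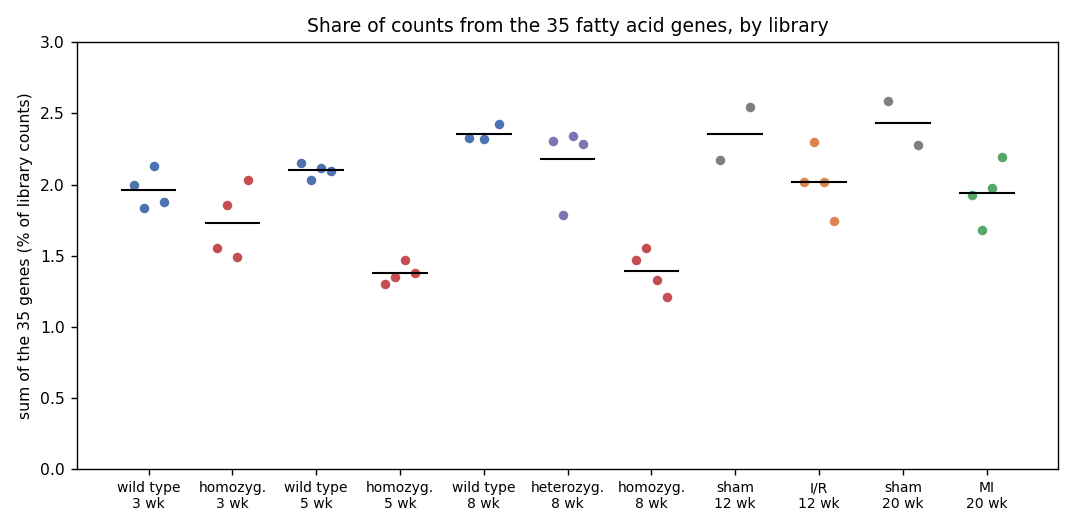
Share of each library's counts (%, vertical axis) that came from the 35 genes, by group (horizontal axis, age in weeks), with 1 point per library and a line at the group mean. Homozygous libraries at 5 and 8 weeks lie between 1.21% and 1.56%, below every wild type library of the same age.

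Genes were tested with edgeR's quasi-likelihood F test, and "called" means a Benjamini-Hochberg adjusted p under 0.05 over all genes tested. Log2 changes and folds come from these fits with TMM scaling, which CPM lack, so folds differ from ratios of the CPM printed. At 3 weeks none of the 35 was called in homozygous against wild type hearts, as for all 13427 genes tested (0% lower and 0% higher). At an unadjusted p under 0.05 stood 11 of the 35 and 1515 of all genes, and DESeq2 called 58 genes lower and 60 higher while limma-voom called 0. The values leaned down: 32 of 35 log2 changes were below 0, with a median of -0.18 against 0.00014 for all genes. Without homozygous replicate 3 the median was -0.11, and without replicate 4 it was -0.30. At 5 weeks 34 of 35 were called lower and 1 higher, against 21.4% lower and 22.3% higher among all 13323 genes. Their median log2 change was -0.90, against -0.0012 for all genes. At 8 weeks 30 were lower, 2 higher and 3 not called, against 29% lower and 30.8% higher among all 14314 genes, with a median of -1.15 against 0.022.

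No difference between heterozygous and wild type hearts at 8 weeks was detectable with these libraries. None of the 35 was called in edgeR, as among all genes (0% lower and 0% higher), and none stood at an unadjusted p under 0.05, where 326 of all 14314 genes did. DESeq2 and limma-voom also called 0 genes. The median log2 change of the 35 was -0.046, and 0.055 without replicate 2. Homozygous against heterozygous hearts gave 30 lower and 0 higher, against 30% lower and 32% higher among all genes, and a median of -1.13. Without replicate 2 these were again 30 and 0, with a median of -1.22. Across all single libraries left out, the calls for Lpl and Acot1 were each lost in 5 of 8 cases. Homozygous and heterozygous hearts were compared with the same 3 wild type libraries.

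After ischemia-reperfusion 26 of the 35 were lower and 0 higher, against 14.1% lower and 16.9% higher among all 13611 genes, with a median log2 change of -0.63. Leaving out single libraries gave 22 lower (without ischemia-reperfusion replicate 4) to 29 (without 12-week sham replicate 1), and ended the call for Slc27a1 in 5 of 8 cases, Acadl in 4, Acaa2 in 3 and Etfb in 2. With the 2 age-matched shams in place of all 4, 12 were lower and the median was -0.46. The shares among all genes given above belong to the comparison with all 4 shams. After infarction 15 were lower and 0 higher, against 4.77% lower and 6.62% higher among all genes, with a median of -0.41. That count moved between 4 and 20 when libraries were left out in turn. It was 4 without 20-week sham replicate 1, 5 without infarction replicate 2 and 9 without infarction replicate 1. Both injury comparisons use the same shams. Scaling by library size alone in place of TMM moved the median of all genes by 0.21 at 5 weeks, 0.19 at 8 weeks, 0.21 after ischemia-reperfusion and 0.11 after infarction, so changes are relative to the bulk of genes. Under that scaling the calls over all genes split into 5388 higher and 1411 lower at 5 weeks, 5403 and 3086 at 8 weeks, 4189 and 431 after ischemia-reperfusion, and 1406 and 317 after infarction.

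**Figure D2:**
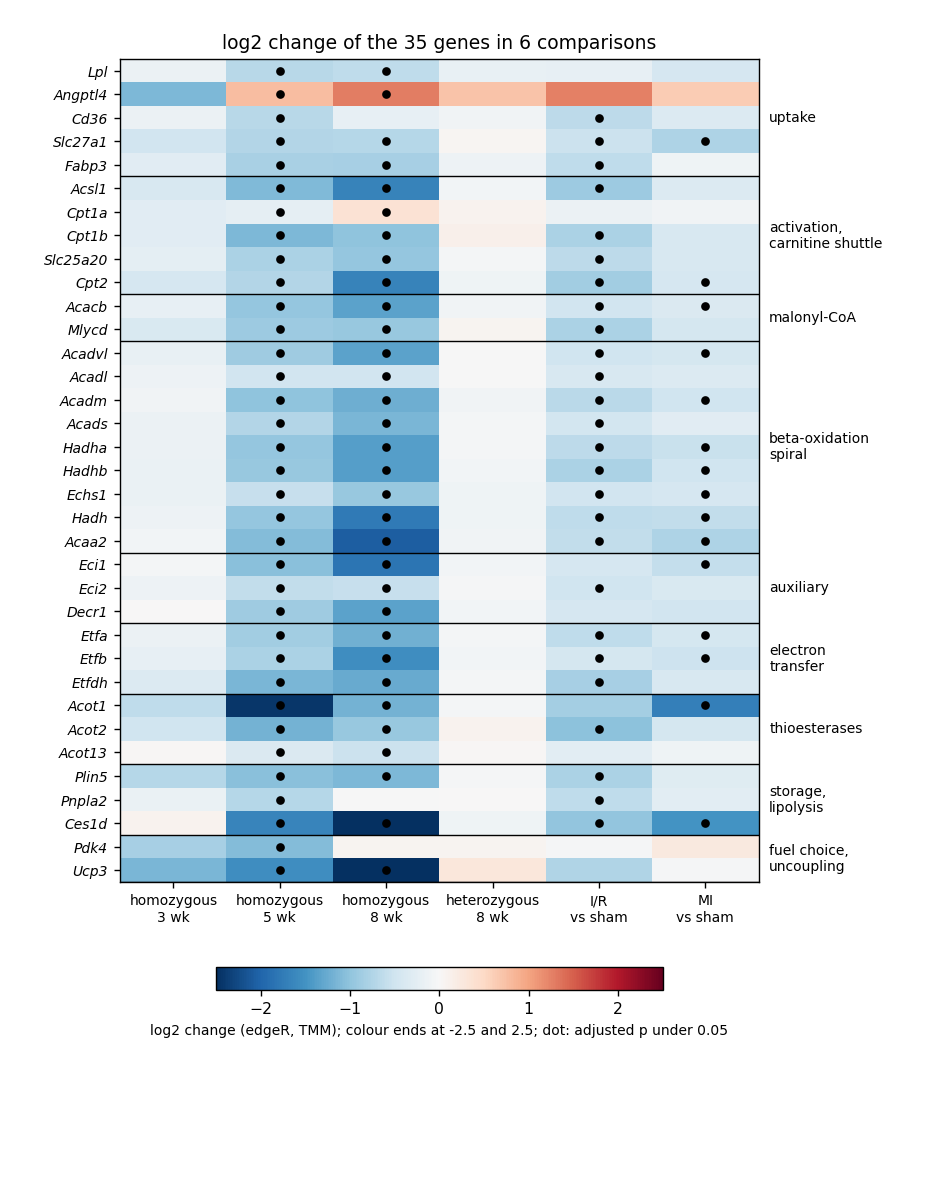
Colour map of log2 changes for the 35 genes (rows, grouped by step) in 6 comparisons (columns). Blue is lower and red is higher in the homozygous, heterozygous or operated hearts, colours end at a log2 change of 2.5 either way, and a dot marks an adjusted p under 0.05. The 3-week and heterozygous columns hold no dot, and the 5-week column has 34 dots on blue and 1 on red.

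In the uptake step, 4 of 5 genes fell and Angptl4 rose at 5 weeks, while at 8 weeks 3 fell, Angptl4 rose and Cd36 was not called. Fabp3, the cytosolic carrier of fatty acids in heart muscle, read 1542, 1344, 1487 and 1434 CPM in the wild type hearts at 5 weeks and 1020, 899.9, 985 and 895 CPM in the homozygous ones, in replicate order as in all lists below. All 4 homozygous values lay below all 4 wild type values, a fall of 0.82 ± 0.076 on the log2 scale (SE; adjusted p = 6.8e-08). At 8 weeks it read 1255, 1227 and 1421 CPM in wild type, 1153, 1065, 1190 and 1274 CPM in heterozygous and 825, 847, 726 and 864 CPM in homozygous hearts. The homozygous group was again the low one, with a log2 change of -0.83 ± 0.11. Slc27a1, a fatty acid transport protein of the plasma membrane, went from 170.2, 171, 161 and 171 CPM in wild type to 118, 123, 113 and 116 CPM in homozygous hearts at 5 weeks, an order kept in what follows. Those groups did not overlap, and the log2 change was -0.72 ± 0.06 (adjusted p = 1.4e-08), close to its value of -0.71 ± 0.16 at 8 weeks.

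Lpl, the lipase that frees fatty acids from lipoproteins, changed by -0.69 ± 0.084 at 5 weeks (adjusted p = 2.0e-06) and -0.64 ± 0.18 at 8 weeks (adjusted p = 0.00756). Cd36, the main fatty acid translocase of cardiomyocytes and capillaries, read 1699, 1577, 1549 and 1650 CPM in wild type and 1120, 1149, 1185 and 1137 CPM in homozygous hearts at 5 weeks. Every homozygous value was lower there (log2 change -0.70 ± 0.067, adjusted p = 1.0e-07). At 8 weeks the wild type values of 1390, 1426 and 1631 CPM and the homozygous values of 1325, 1696, 1452 and 1296 CPM overlapped. The log2 change at that age was -0.20 ± 0.12 (adjusted p = 0.179), and the genotype effect at 8 weeks exceeded that at 5 weeks by 0.53 ± 0.18 (adjusted p = 0.0255). That difference was not called without wild type replicate 1 at 5 weeks, wild type replicates 1 or 2 at 8 weeks, or homozygous replicate 2 at 8 weeks (adjusted p from 0.0512 to 0.0727).

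Angptl4, a secreted inhibitor of lipoprotein lipase, was the only one of the 35 called higher at 5 weeks. Its wild type values were 24.7, 12, 12 and 17.8 CPM and its homozygous values 25.3, 44.6, 18.6 and 42.5 CPM. The groups overlapped, and the rise of 0.77 ± 0.23 (adjusted p = 0.0118) was not called by DESeq2 (adjusted p = 0.0947), with all 39 libraries in 1 edgeR fit (0.25) or without homozygous replicate 2 (0.0545). At 8 weeks it read 15.1, 8.56 and 11.8 CPM in wild type, 19.4, 10.7, 24.2 and 21.7 CPM in heterozygous and 10.6, 57.9, 19.3 and 43.8 CPM in homozygous hearts. Homozygous replicates 2 and 4 were the high ones, and the rise of 1.27 ± 0.46 (adjusted p = 0.0279) was not called without either of them, nor without wild type replicates 2 or 3 (adjusted p from 0.0629 to 0.104). At 3 weeks the same gene read 45, 10.7, 28.3 and 8.27 CPM in wild type and 7.18, 11.5, 9.83 and 15 CPM in homozygous hearts. The log2 change was -1.13 ± 0.46 and not called, the opposite sign to the later ages.

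In the activation and carnitine step, 5 of 5 genes fell at 5 weeks, and at 8 weeks 4 fell and Cpt1a rose. Acsl1, which joins long-chain fatty acids to coenzyme A, read 976, 895, 836 and 959 CPM in wild type and 424, 514, 542 and 476 CPM in homozygous hearts at 5 weeks. Its homozygous level was 2.16-fold lower (log2 change -1.11 ± 0.083, adjusted p = 4.3e-09). By 8 weeks the values were 1100, 1130 and 1142 CPM in wild type, 1136, 798, 1178 and 1096 CPM in heterozygous and 489, 373, 338 and 364 CPM in homozygous hearts, a log2 change of -1.67 ± 0.18 between homozygous and wild type (adjusted p = 8.2e-06). Cpt2, the inner membrane transferase that gives back acyl-CoA in the matrix, went from 237, 224, 231 and 250.3 CPM to 166, 163, 165 and 163 CPM at 5 weeks and from 305, 329 and 351 CPM to 121, 108, 103 and 130.0 CPM at 8 weeks. No groups overlapped, and the fall grew from 0.73 ± 0.063 to 1.66 ± 0.14. The difference between those effects was called (-0.91 ± 0.18, adjusted p = 3.2e-04). Slc25a20, the carnitine-acylcarnitine carrier, changed by -0.80 ± 0.07 and -0.96 ± 0.13 at the 2 ages (adjusted p = 3.1e-08 and 4.3e-05). Cpt1b, the outer membrane transferase of muscle, changed by -1.13 ± 0.14 and -1.01 ± 0.12, with the doubt on its shared exons given above.

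Cpt1a, the transferase known as the liver isoform, did the opposite of its muscle partner at 8 weeks. It read 70.5, 68.4 and 69.7 CPM in wild type, 78, 59.8, 77.6 and 73.4 CPM in heterozygous and 74.6, 131, 102 and 95.6 CPM in homozygous hearts. All 4 homozygous values lay above the narrow wild type range, homozygous replicate 2 by most, and the rise was 0.36 ± 0.14 on the log2 scale (adjusted p = 0.034). It was not called without any 1 of the wild type libraries or without homozygous replicate 2 or 3 (adjusted p from 0.057 to 0.112). The 5-week values were 82.2, 75.8, 60.0 and 70.4 CPM in wild type and 75.3, 75.4, 63.1 and 71.1 CPM in homozygous hearts. They overlapped, and the fall of 0.22 ± 0.086 (adjusted p = 0.0407) came to 0.017 under scaling by library size, where it was not called (adjusted p = 0.887). Nor was it called with all 39 libraries in 1 edgeR fit (adjusted p = 0.242) or without any 1 of 6 libraries. The genotype effect at 8 weeks exceeded that at 5 weeks by 0.62 ± 0.22 (adjusted p = 0.029), and 6 single libraries ended that call when left out.

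Both genes of malonyl-CoA control fell at 5 and 8 weeks. Acacb makes malonyl-CoA, the inhibitor of the outer membrane transferases, and Mlycd breaks it down. Acacb read 372, 399.9, 387 and 410.2 CPM in wild type and 218, 219, 248 and 241 CPM in homozygous hearts at 5 weeks, and 597, 645 and 610.2 CPM and 311, 298, 253 and 222 CPM at 8 weeks. The groups were apart at both ages, with log2 changes of -0.97 ± 0.069 (adjusted p = 2.1e-09) and -1.34 ± 0.16 (adjusted p = 1.4e-05). Mlycd went from 114, 106, 111 and 116 CPM to 72.8, 71.3, 69.7 and 60.0 CPM at 5 weeks, and changed by -0.91 ± 0.074 and then -0.95 ± 0.11 at 8 weeks. The maker and the breaker of malonyl-CoA thus moved in the same direction.

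All 9 genes of the beta-oxidation spiral fell at 5 weeks and again at 8 weeks, from -0.48 to -1.09 at 5 weeks and from -0.49 to -2.07 at 8 weeks on the log2 scale. Their summed level was 6686 to 6950 CPM in wild type and 4149 to 4800 CPM in homozygous hearts at 5 weeks, and 8174 to 8442 CPM against 3680 to 4149 CPM at 8 weeks. The acyl-CoA dehydrogenases, which open each cycle, differ in the chain length they prefer. Acadvl, for very long chains, changed by -0.89 ± 0.073 and -1.33 ± 0.15 at 5 and 8 weeks, Acadm, for medium chains, by -1.003 ± 0.081 and -1.22 ± 0.16, and Acads, for short chains, by -0.73 ± 0.063 and -1.15 ± 0.15. Acadl, for long chains, had the smallest fall of the step at both ages, 0.48 ± 0.069 and 0.49 ± 0.11. Acaa2 and Hadh, which act late in the cycle, had the largest falls of the step at 8 weeks. Acaa2, the matrix thiolase, read 770.0, 748, 832 and 805 CPM in wild type and 452, 389, 483 and 379 CPM in homozygous hearts at 5 weeks, and 964, 906 and 975 CPM and 269, 273, 218 and 249 CPM at 8 weeks. In the TMM-scaled fits its level was 2.13-fold and then 4.19-fold lower (adjusted p = 7.9e-09 and 6.9e-07). Hadh, which oxidises hydroxyacyl-CoA of shorter chains, changed by -0.97 ± 0.081 and then -1.76 ± 0.14, and Echs1, the short-chain hydratase, by -0.58 ± 0.073 and -0.95 ± 0.11. For these 3 genes the genotype effect was larger at 8 than at 5 weeks (adjusted p = 0.00444 for Acaa2, 0.00227 for Hadh and 0.0461 for Echs1).

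Hadha and Hadhb encode the alpha and beta subunits of the trifunctional protein, which carries out the last reactions of the cycle on long chains. They lie head to head on chromosome 5, and their RefSeq start sites are 273 bases apart on GRCm38.p6. The window from 250 bases before the Hadhb start to 50 bases from it on is shown because the genes that diverge from it moved together. It is chr5:30155003-30155302 on the forward strand, with the 228 bases it shares with the Hadha window in capitals.
Hadhb: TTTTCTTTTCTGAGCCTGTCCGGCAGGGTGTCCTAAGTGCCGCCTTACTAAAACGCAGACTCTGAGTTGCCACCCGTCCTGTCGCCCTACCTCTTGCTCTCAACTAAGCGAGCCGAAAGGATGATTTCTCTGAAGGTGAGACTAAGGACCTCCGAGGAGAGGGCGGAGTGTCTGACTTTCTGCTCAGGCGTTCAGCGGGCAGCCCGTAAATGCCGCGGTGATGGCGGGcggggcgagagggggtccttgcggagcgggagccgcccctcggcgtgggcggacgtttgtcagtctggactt
At 5 weeks Hadha read 1269, 1261, 1251 and 1249 CPM in wild type and 691, 712, 839.8 and 741 CPM in homozygous hearts. Hadhb read 711, 699, 688 and 699 CPM and 375, 423, 442 and 434 CPM in the same libraries. The falls were 0.96 ± 0.075 and 0.95 ± 0.068 on the log2 scale (adjusted p = 7.7e-09 and 2.5e-09). At 8 weeks Hadha read 1731, 1644 and 1685 CPM in wild type, 1676, 1300, 1692 and 1716 CPM in heterozygous and 779.9, 770.4, 643 and 692 CPM in homozygous hearts. Hadhb read 863, 799.8 and 904 CPM, 823, 688, 847 and 835 CPM and 408, 360.4, 342 and 349 CPM. Both were lowest in the homozygous group and low in heterozygous replicate 2, and both fell by 1.38 (SE 0.14 for Hadha and 0.13 for Hadhb) against wild type. After ischemia-reperfusion they changed by -0.66 ± 0.15 and -0.79 ± 0.12, and after infarction by -0.56 ± 0.15 and -0.50 ± 0.12. In each of these comparisons the Hadhb value lay within 1 standard error of the Hadha value.

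The auxiliary enzymes handle unsaturated fatty acids. Eci1, which shifts double bonds so that the cycle can go on, read 232, 227, 252 and 240.3 CPM in wild type and 134, 122, 144 and 132 CPM in homozygous hearts at 5 weeks, and 260.3, 251 and 261 CPM and 89, 86.9, 72.7 and 74.4 CPM at 8 weeks. Its level was 2.06-fold and then 3.55-fold lower (adjusted p = 1.4e-09 and 5.7e-07), and the effects differed by -0.76 ± 0.20 (adjusted p = 0.00363). Decr1, the dienoyl-CoA reductase, went from 378, 369, 389.6 and 369.6 CPM to 219, 235, 244 and 233 CPM at 5 weeks and changed by -0.90 ± 0.064 and -1.33 ± 0.14 at 5 and 8 weeks. Eci2, a second isomerase, fell by 0.62 ± 0.066 and 0.58 ± 0.12.

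Electron transfer flavoprotein (Etfa and Etfb) and its oxidoreductase (Etfdh) pass electrons from the acyl-CoA dehydrogenases to the respiratory chain. All 3 genes fell at both ages. Etfdh had the smallest adjusted p of the 35 at 5 weeks (5.8e-10), with 628, 581, 579 and 618 CPM in wild type and 292, 307, 347 and 305 CPM in homozygous hearts. No homozygous value reached the wild type ones, and the log2 change was -1.15 ± 0.074. At 8 weeks it read 689, 711 and 699.9 CPM and 389, 319, 292 and 289 CPM, a change of -1.27 ± 0.16. Etfa read 566, 534, 551 and 535 CPM and 337, 316, 389 and 339.7 CPM at 5 weeks, and changed by -0.87 ± 0.076 and -1.21 ± 0.16 at 5 and 8 weeks. Etfb, whose exons are partly shared, changed by -0.79 ± 0.08 and -1.55 ± 0.13.

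Thioesterases free fatty acids from coenzyme A, and all 3 fell at both ages. Acot1, the cytosolic long-chain enzyme, was the member with the largest fall at 5 weeks, from 8.69, 9.1, 11.3 and 10.8 CPM to 1.99, 1.86, 1.84 and 2.77 CPM. In the TMM-scaled fit it was 5.4-fold lower (log2 change -2.43 ± 0.19, adjusted p = 9.1e-09). At 8 weeks the values were 9.02, 11.7 and 8.84 CPM in wild type, 10.7, 3.65, 12 and 10.9 CPM in heterozygous and 2.1, 8.56, 6.38 and 2.59 CPM in homozygous hearts. The homozygous libraries spread widely, replicates 2 and 3 being the high ones, and the fall of 1.19 ± 0.44 (adjusted p = 0.0331) was not called under scaling by library size (adjusted p = 0.0686) or without wild type replicate 1 or 2 or homozygous replicate 1 or 4 (adjusted p from 0.0588 to 0.106). Acot2, its mitochondrial neighbour, went from 55.4, 48.7, 46.9 and 62.5 CPM to 23.4, 31.2, 28.7 and 26 CPM at 5 weeks and changed by -1.17 ± 0.10 and -0.95 ± 0.18. Acot13 fell by 0.35 ± 0.085 at 5 weeks (adjusted p = 0.00229), which was 0.15 and not called under scaling by library size (adjusted p = 0.126), and by 0.54 ± 0.14 at 8 weeks (adjusted p = 0.00429).

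The storage and lipolysis genes parted between 5 and 8 weeks. Ces1d, a carboxylesterase with triacylglycerol hydrolase activity (chromosome 8, 93166068 to 93197838, reverse strand of GRCm38), read 40.8, 79, 73.5 and 75.7 CPM in wild type and 22.8, 23.2, 26.6 and 25.9 CPM in homozygous hearts at 5 weeks. It was 3.15-fold lower there (log2 change -1.66 ± 0.15, adjusted p = 4.6e-08). At 8 weeks the wild type values were 149, 130.0 and 113 CPM, the heterozygous values 135, 64.6, 138 and 139 CPM and the homozygous values 8.06, 7.75, 5.64 and 5.24 CPM. No other member had so large a change in any comparison of 2 groups: 21.8-fold lower than wild type (log2 change -4.45 ± 0.28, adjusted p = 3.9e-07). Heterozygous replicate 2 was the low one of its group, still above every homozygous heart. At 3 weeks, in contrast, the wild type values of 32.3, 51.6, 71.3 and 51.4 CPM and the homozygous values of 58.3, 57.1, 21.4 and 85.2 CPM overlapped, with a log2 change of 0.082 ± 0.34.

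Plin5, the lipid droplet protein that ties droplets to mitochondria, went from 163, 128, 133 and 144 CPM to 93.9, 66.4, 77.5 and 78.1 CPM at 5 weeks and from 157, 156 and 172 CPM to 87.7, 90.6, 78 and 74.1 CPM at 8 weeks. The falls were alike at the 2 ages, 1.05 ± 0.10 and 1.12 ± 0.12. At 3 weeks it had the smallest p of the 35, with 171, 209, 206 and 173 CPM in wild type and 93.5, 149, 89.4 and 138 CPM in homozygous hearts. Those groups did not overlap, and the log2 change of -0.72 ± 0.16 (adjusted p = 0.234) was called by DESeq2 (adjusted p = 0.00877), without a filter (0.0479) and with all 39 libraries in 1 edgeR fit (0.0439). Pnpla2, the lipase that opens triacylglycerol breakdown, fell at 5 weeks from 369, 323, 328 and 343 CPM to 247, 242, 249 and 225 CPM (log2 change -0.71 ± 0.07, adjusted p = 1.4e-07). At 8 weeks wild type hearts read 440.5, 482 and 415 CPM and homozygous hearts 442, 603, 494 and 445 CPM. The groups overlapped, with a log2 change of -0.014 ± 0.12 (adjusted p = 0.932), and the difference between the effects at 8 and 5 weeks was 0.72 ± 0.24 (adjusted p = 0.0216). It was not called without wild type replicate 3 (adjusted p = 0.0629) or homozygous replicate 2 (0.0584) at 8 weeks.

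Ucp3, a mitochondrial carrier of muscle whose RNA follows fatty acid supply (chromosome 7, 100472990 to 100486432, forward strand), read 124, 91.8, 80.6 and 91.3 CPM in wild type and 29.3, 46.6, 35 and 42.2 CPM in homozygous hearts at 5 weeks. It was 2.92-fold lower (log2 change -1.55 ± 0.13, adjusted p = 1.7e-08). At 8 weeks it read 121, 86 and 95.1 CPM in wild type, 132, 67.4, 155 and 124 CPM in heterozygous and 10.2, 26.7, 8.61 and 14.8 CPM in homozygous hearts. The level was 7.55-fold lower than wild type (log2 change -2.92 ± 0.34, adjusted p = 1.3e-05). Already at 3 weeks the wild type hearts read 181, 67.1, 154 and 84.4 CPM and the homozygous hearts 46.7, 64.6, 33.4 and 80.5 CPM, groups that overlapped (log2 change -1.14 ± 0.33, adjusted p = 0.277). Pdk4, the kinase that shuts off pyruvate dehydrogenase when fat is burned, spread widely in every group. It read 708, 615, 416 and 732 CPM in wild type and 229, 409.7, 257 and 459 CPM in homozygous hearts at 5 weeks, a fall of 1.08 ± 0.18 (adjusted p = 7.7e-05) that was not called with all 39 libraries in 1 fit (adjusted p = 0.0784). At 8 weeks the values of 462, 429 and 858 CPM and 678, 1246, 385 and 405 CPM overlapped, with a log2 change of 0.067 ± 0.44.

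**Figure D3:**
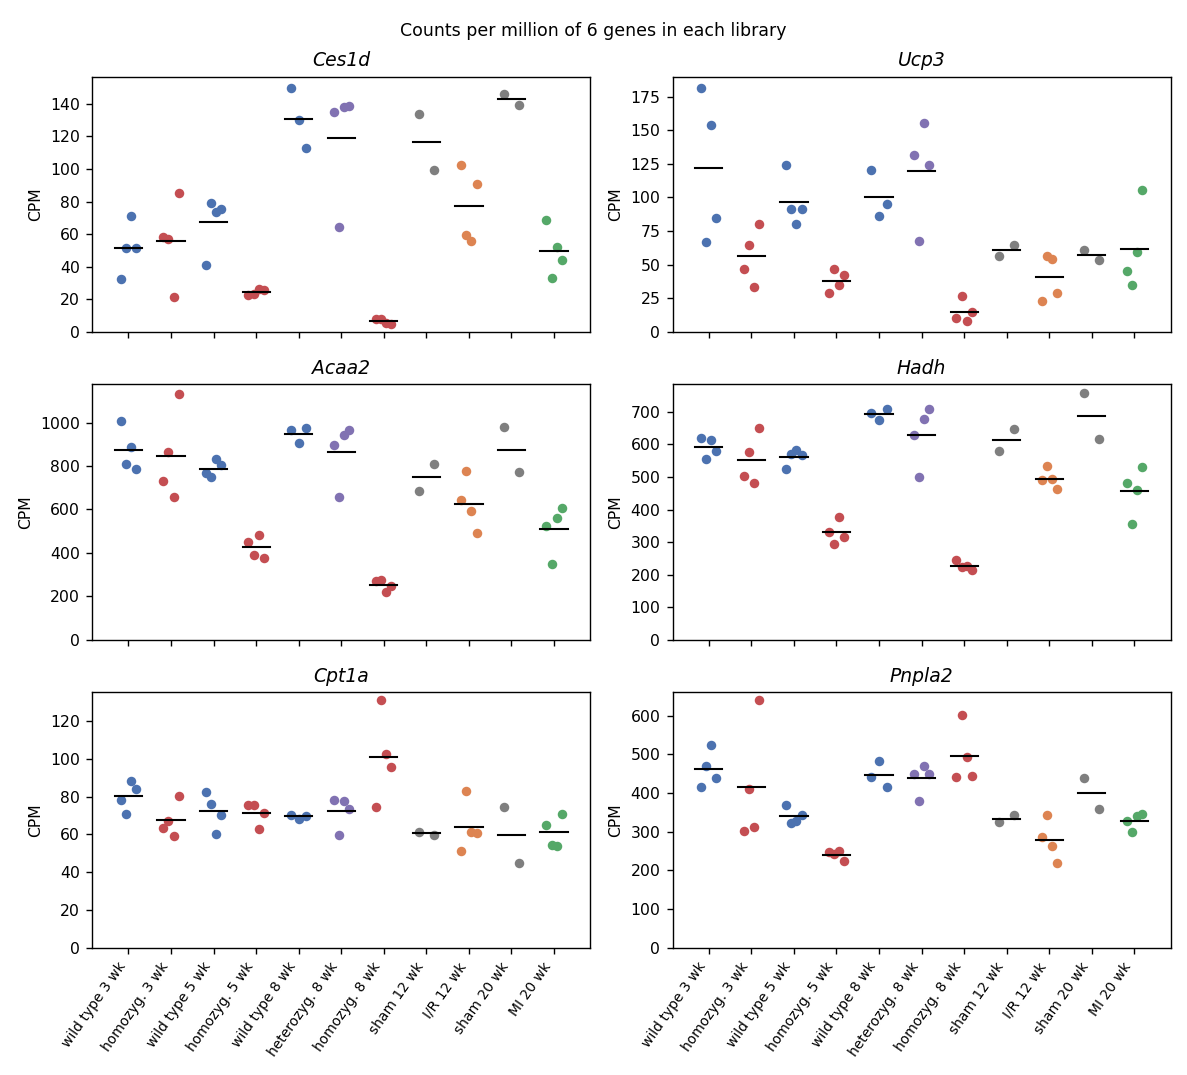
CPM (vertical axes, from 0) of Ces1d, Ucp3, Acaa2, Hadh, Cpt1a and Pnpla2 in each of the 39 libraries, by group, with 1 point per library and a line at the group mean. Ces1d lies between 5.24 and 8.06 CPM in the homozygous hearts at 8 weeks and at 64.6 CPM or above in the heterozygous and wild type hearts of that age.

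RefSeq promoter windows on GRCm38.p6, each of 300 bases, were matched by symbol for 28 of the 35 genes, 32 windows in all among 32851. Motifs were searched on both strands. The response element of the estrogen-related receptors, TCAAGGTCA, was in none of the 32 windows and in 0.423% of all windows. The spaced repeat bound by PPAR with RXR was not in them either, whether read as AGGTCA, any 1 base and AGGTCA again (0.0396% of all windows) or with AGGNCA as each arm (0.381%). These longer motifs are so rare among all windows that their absence from 32 windows does not set the members apart. The shared half-site AGGTCA, searched after the longer motifs gave no match and contained in them except the looser form, was in 9 of the 32 windows (28.1%), against 16.3% of all windows. It was in windows of Acadm, Cd36, Acacb, Ucp3, Echs1, Acadvl, Plin5 and Cpt1a. The windows of Ucp3 (chr7:100472741-100473040) and Cpt1a (chr19:3323051-3323350), both on the forward strand, are shown because these genes moved in opposite directions at 8 weeks. Capitals mark the half-site, or its reverse complement in Cpt1a.
Ucp3: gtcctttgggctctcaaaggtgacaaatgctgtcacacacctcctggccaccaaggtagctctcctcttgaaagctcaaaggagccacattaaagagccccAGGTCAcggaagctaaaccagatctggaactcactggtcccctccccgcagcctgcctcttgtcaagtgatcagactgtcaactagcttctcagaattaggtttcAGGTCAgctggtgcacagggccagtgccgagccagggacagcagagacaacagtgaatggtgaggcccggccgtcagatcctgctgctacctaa
Cpt1a: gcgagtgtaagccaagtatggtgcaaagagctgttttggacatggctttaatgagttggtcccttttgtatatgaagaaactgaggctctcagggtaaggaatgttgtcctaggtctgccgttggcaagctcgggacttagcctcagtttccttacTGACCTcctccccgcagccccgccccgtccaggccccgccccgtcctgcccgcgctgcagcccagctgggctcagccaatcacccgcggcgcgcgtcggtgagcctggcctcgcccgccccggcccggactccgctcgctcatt
Ucp3 holds it 2 times and Cpt1a 1 time. The half-site was thus in windows of genes that fell and of 1 gene that rose.

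The time course was tested as differences between genotype effects, in 1 edgeR fit of all 39 libraries. Between 3 and 5 weeks the genotype effect became lower for 24 of the 35 genes and higher for 0, against 9.29% and 11.1% of all 14931 genes, with a median difference of -0.59. By step these were 8 of 9 spiral genes, 3 of 3 auxiliary and 3 of 3 electron transfer genes, 2 of 2 of malonyl-CoA control, 3 of 5 of uptake, 3 of 5 of the carnitine step, 1 of 3 thioesterases, 1 of 3 of storage and 0 of 2 of fuel choice. Under scaling by library size the count was 15, against 579 of all 14931 genes, and the median was -0.41. Acot1 (-1.82 ± 0.64, adjusted p = 0.0408), Ces1d (-1.75 ± 0.42, adjusted p = 0.00281) and Acaa2 (-1.03 ± 0.24, adjusted p = 0.00236) had the largest differences among the 24 called, and Angptl4 (1.89 ± 0.72, adjusted p = 0.0571) had a larger one that was not called. For Acot1 the call was lost with limma-voom (adjusted p = 0.0921), scaling by library size (0.0613) and 9 of the 16 single libraries left out. Leaving out single libraries also ended the call for Lpl in 9 of 16 cases, Mlycd in 8, Eci2 in 3, Slc25a20 in 2 and Fabp3 in 1. The count of genes with a lower effect ran from 19, without replicate 2 of the wild type or replicate 4 of the homozygous hearts at 3 weeks, to 26.

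Between 5 and 8 weeks the effect became lower for 8 genes and higher for 3, against 13.8% and 14.4% of all genes, with a median difference of -0.16. The 8 were Ces1d, Ucp3, Acaa2, Cpt2, Hadh, Eci1, Etfb and Echs1, and the 3 were Pnpla2, Cpt1a and Cd36. Ces1d moved most (-2.76 ± 0.45, adjusted p = 2.2e-05). The call for Ucp3 (-1.34 ± 0.51, adjusted p = 0.0461) was lost with DESeq2 (0.0522) and on leaving out any of 12 single libraries, and that for Echs1 in 3 other settings and 7 of the libraries left out. Without homozygous replicate 1 at 8 weeks, whose mitochondrial share of 15.5% stood above the 8.27% to 10.6% of the other 3, 13 genes were lower. Without homozygous replicate 2 at 8 weeks none of the 3 remained called higher.

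**Figure D4:**
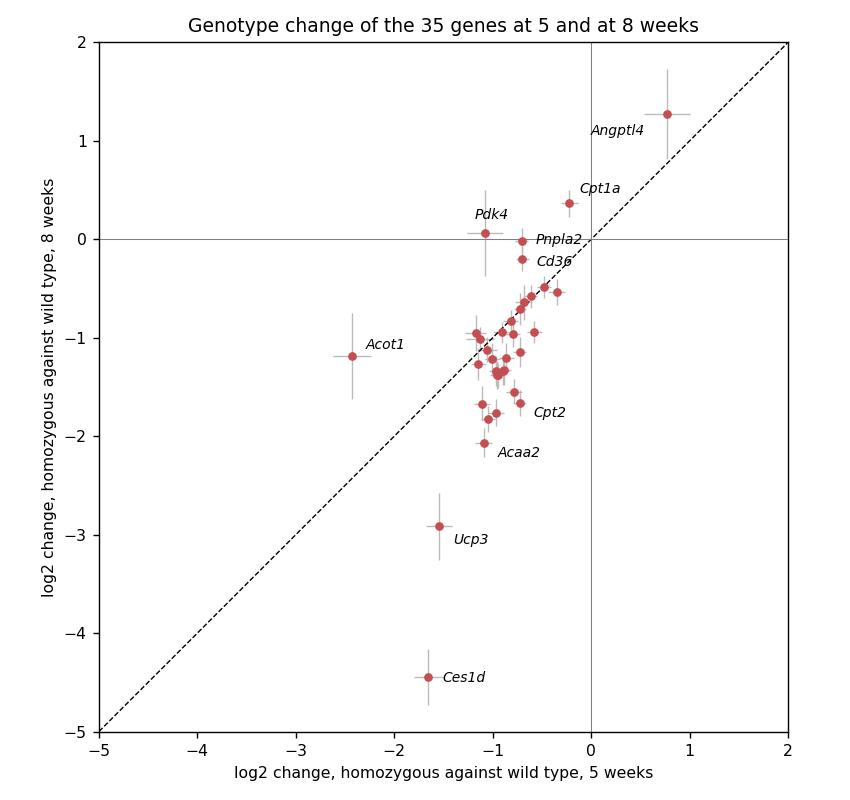
log2 change of each of the 35 genes in homozygous against wild type hearts at 5 weeks (horizontal axis) and at 8 weeks (vertical axis), with bars of 1 standard error and a dashed line where both are equal. Ces1d, Ucp3, Acaa2 and Cpt2 lie below the line, and Pnpla2, Cd36, Cpt1a and Pdk4 above it.

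In wild type hearts alone, 3 genes were called higher at 8 than at 3 weeks and 0 lower, against 4.73% higher and 3.67% lower among all genes. Ces1d rose by 1.37 ± 0.30 (adjusted p = 0.00342), Lpl by 0.69 ± 0.15 (adjusted p = 0.0033) and Hadhb by 0.57 ± 0.13 (adjusted p = 0.00422). With only these libraries in the fit 12 genes were called higher. The shares among all genes given above belong to the fit of all 39 libraries and not to this one. Ces1d thus went from 32.3, 51.6, 71.3 and 51.4 CPM at 3 weeks to 149, 130.0 and 113 CPM at 8 weeks in wild type, while in homozygous hearts it went from 58.3, 57.1, 21.4 and 85.2 CPM to 8.06, 7.75, 5.64 and 5.24 CPM. The 5-week libraries carry another naming scheme in the labels than those of 3 and 8 weeks, so levels of that age are compared only within it.

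After ischemia-reperfusion the 9 spiral genes were all lower, as were 4 of 5 carnitine genes, 3 of 3 electron transfer genes and 3 of 3 storage genes. Cpt2 had the smallest p, with 147, 173, 168 and 171 CPM against shams of 256 and 218 CPM at 12 weeks and 285 and 262 CPM at 20 weeks. All 4 injured hearts lay below all shams (log2 change -0.86 ± 0.13, adjusted p = 1.5e-04). Hadhb read 644, 732, 537 and 649.6 CPM against 853 and 912 CPM at 12 weeks and 1057 and 937 CPM at 20 weeks, a fall of 0.79 ± 0.12 (adjusted p = 2.5e-04) with no overlap. Acsl1 read 472, 542, 539.8 and 675 CPM against 920.1 and 666 CPM at 12 weeks and 1023 and 915 CPM at 20 weeks, and replicate 4 overlapped the lowest sham (log2 change -0.90 ± 0.14, adjusted p = 2.9e-04). Etfa read 468, 476, 441 and 441 CPM against 563 and 557 CPM at 12 weeks and 649 and 632 CPM at 20 weeks, a fall of 0.63 ± 0.10 (adjusted p = 3.0e-04). Etfdh read 364, 514, 401 and 438 CPM against 594 and 528 CPM at 12 weeks and 775 and 689 CPM at 20 weeks, a fall of 0.83 ± 0.15 (adjusted p = 6.5e-04). Neither gene's groups overlapped. The 9 genes not called were Lpl, Angptl4, Cpt1a, Eci1, Decr1, Acot1, Acot13, Pdk4 and Ucp3. Angptl4 read 13.7, 42.4, 59.5 and 14.9 CPM against 4.04 and 25 CPM at 12 weeks and 12.8 and 6.02 CPM at 20 weeks, with a log2 change of 1.26 ± 0.51 (adjusted p = 0.0729). It was called higher under scaling by library size, without a filter, and without ischemia-reperfusion replicate 1 or 4 or 12-week sham replicate 2 (adjusted p from 0.0144 to 0.0368).

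After infarction 7 of the 9 spiral genes were lower, and the other steps had 1 or 2 calls each, or 0 in fuel choice. Ces1d had the smallest p, with 68.4, 33.2, 52.4 and 44 CPM against shams of 134 and 99.2 CPM at 12 weeks and 146 and 139 CPM at 20 weeks. No infarcted heart reached a sham, a 2.83-fold lower level (log2 change -1.50 ± 0.22, adjusted p = 8.9e-04). Echs1 read 304, 265, 309 and 317 CPM against 378 and 380.2 CPM at 12 weeks and 354 and 365 CPM at 20 weeks, a fall of 0.41 ± 0.086 (adjusted p = 0.00772). Hadh read 481, 354, 459 and 529.5 CPM against 578 and 646 CPM at 12 weeks and 757 and 616 CPM at 20 weeks, a fall of 0.62 ± 0.13 (adjusted p = 0.00914). Infarction replicate 2 was the lowest for both. Acaa2 read 522, 351, 563 and 607 CPM against 684 and 810.4 CPM at 12 weeks and 981 and 771 CPM at 20 weeks, a fall of 0.77 ± 0.19 (adjusted p = 0.0156), not called without 20-week sham replicate 1 (0.0604). Etfa fell by 0.44 ± 0.10 (adjusted p = 0.0125), and Slc27a1, Cpt2, Acacb, Acadvl, Acadm, Hadha, Hadhb, Eci1, Etfb and Acot1 were the others called. With 1 library left out, the calls for Cpt2 and Acadvl were lost in 6 of 8 cases. Those for Acacb, Hadha and Eci1 were lost in 4, Acadm and Etfb in 3, and Slc27a1, Hadhb and Acot1 in 2. Ucp3 read 45.2, 35.3, 59.5 and 106 CPM against 56.8 and 64.7 CPM at 12 weeks and 60.7 and 53.7 CPM at 20 weeks and overlapped (log2 change -0.028 ± 0.32, adjusted p = 0.97).

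Between the injuries, Fabp3 (-0.53 ± 0.13), Acsl1 (-0.55 ± 0.14), Plin5 (-0.50 ± 0.16) and Cpt2 (-0.45 ± 0.13) were lower after ischemia-reperfusion than after infarction and 0 were higher, against 8.84% lower and 11.2% higher among all genes. Fabp3 read 901, 1122, 1115 and 908 CPM after ischemia-reperfusion and 1271, 1197, 1449 and 1439 CPM after infarction, with no overlap (adjusted p = 0.00934). The call for Plin5 was lost in 6 and that for Cpt2 in 3 of 8 cases with 1 library left out. As a difference of effects against age-matched shams, 0 genes were called, and the value for Plin5 was 0.096, the other way (adjusted p = 0.924). The type of injury, age and time since surgery cannot be told apart in this comparison.

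Most of the 35 genes were lower in homozygous hearts at 8 weeks, relative to wild type, than in infarcted hearts relative to sham. Tested as a difference of effects, 22 of the 35 were lower and 0 higher, against 17.7% and 19.6% of all genes, with a median difference of -0.70. Ces1d (-2.92 ± 0.44, adjusted p = 3.7e-06), Ucp3 (-2.86 ± 0.51, adjusted p = 3.5e-05) and Acsl1 (-1.30 ± 0.22, adjusted p = 1.5e-05) differed most. The calls took in 8 of 9 spiral genes, 3 of 3 electron transfer genes and 4 of 5 carnitine genes, but 1 of 5 uptake genes. For Lpl (-0.19 ± 0.21), Slc27a1 (0.085 ± 0.27), Acadl (-0.11 ± 0.17), Eci2 (-0.18 ± 0.17) and Acot1 (0.55 ± 0.65) and 8 others the difference was not called. Age, genotype and surgery all differ between these pairs of groups.

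**Figure D5:**
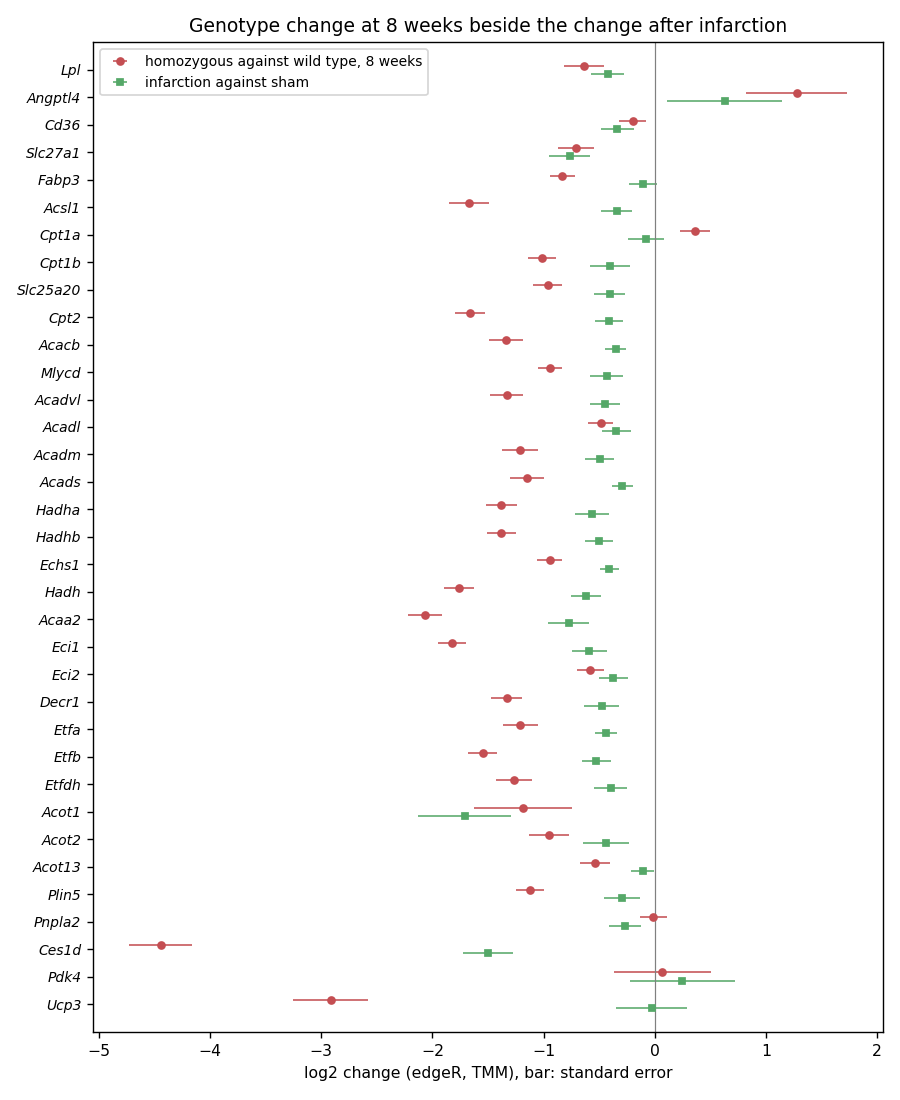
log2 change (horizontal axis) of each of the 35 genes in homozygous against wild type hearts at 8 weeks (circles) and after infarction against sham (squares), with bars of 1 standard error. The Ces1d and Ucp3 circles stand at -4.45 and -2.92, and their squares at -1.50 and -0.028.

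Another 101 lipid genes were listed by role. At 5 weeks 61 of the 97 tested were lower and 11 higher, with a median of -0.36, and at 8 weeks 59 of 99 were lower and 17 higher, with a median of -0.42. Under scaling by library size 41 were lower and 17 higher at 5 weeks, and 47 and 24 at 8 weeks. That scaling called 1411 of all 13323 genes lower and 5388 higher at 5 weeks. At 8 weeks it called 3086 of all 14314 genes lower and 5403 higher. Of the 14 other genes of mitochondrial acyl-CoA oxidation, 12 were lower at 5 weeks and 14 at 8 weeks, among them Ech1, an auxiliary isomerase (-1.14 ± 0.075 and -1.66 ± 0.15). Of 13 peroxisomal genes 9 were lower at each age and 0 higher, with medians of -0.29 and -0.71. Of 11 genes of fatty acid synthesis 3 were lower and 3 higher at 5 weeks, and 0 lower and 4 higher at 8 weeks, against the shares of 21.4% lower and 22.3% higher, and 29% lower and 30.8% higher, among all genes. Under scaling by library size these were 1 lower (Srebf1) and 4 higher (Elovl1, Fads1, Fasn and Scd1) at 5 weeks, and 0 lower and 8 higher at 8 weeks. The calls over all genes under that scaling, given above, also leaned to higher at both ages. Mgll, the lipase that completes glyceride breakdown, had the smallest p of the list at 5 weeks (-1.34 ± 0.076, adjusted p = 1.0e-10). Fabp4, a carrier of capillary endothelium, fell at 5 weeks and rose at 8 weeks (-0.85 ± 0.062 and 0.56 ± 0.15, adjusted p = 3.1e-09 and 0.00612). Gpihbp1, which holds lipoprotein lipase at the capillary wall, did the same (-0.91 ± 0.087 and 1.10 ± 0.16).

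Kinases of pyruvate dehydrogenase did not move together. Pdk2 fell by 0.62 ± 0.072 at 5 weeks and 1.15 ± 0.14 at 8 weeks (adjusted p = 1.3e-06 and 1.9e-05), and Pdk1 by 0.17 ± 0.064 at 5 weeks (adjusted p = 0.0383), which turned to 0.038 under scaling by library size (adjusted p = 0.655). Pdk3 rose by 0.93 ± 0.19 and 1.96 ± 0.21 and Ucp2 by 0.52 ± 0.093 and 2.09 ± 0.20 at the 2 ages. Other genes called higher at 5 weeks while most of their list was lower or split were the acyl-CoA synthetases Acsl4 (0.32 ± 0.12) and Acsl5 (0.40 ± 0.078), the thioesterase Acot9 (0.52 ± 0.084), the acyltransferase Gpat4 (0.19 ± 0.062) and the transcription factor Hif1a (0.54 ± 0.072).

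Of 14 genes listed as regulators (transcription factors, coactivators and Prkaa2, a subunit of the AMP-activated kinase), 9 were lower and 1 higher at 5 weeks, and 10 lower and 2 higher at 8 weeks. Among all genes 21.4% were lower and 22.3% higher at 5 weeks, and 29% and 30.8% at 8 weeks. The regulator counts shift with the scaling. Under library size scaling only Ppara, Ppargc1a, Ppargc1b, Esrrg, Klf15 and Lpin1 were called lower at 5 weeks. Hif1a and Prkaa2 (0.21, edgeR adjusted p = 0.0403) were called higher there. At 8 weeks that scaling called Ppara, Ppard, Ppargc1a, Ppargc1b, Esrra, Esrrg, Lpin1 and Prkaa2 lower, and Pparg, Klf15 and Hif1a higher. Ppara, the receptor for fatty acids, changed by -0.049 ± 0.19 at 3 weeks, -0.72 ± 0.18 at 5 weeks (adjusted p = 0.00257) and -1.17 ± 0.22 at 8 weeks (adjusted p = 4.7e-04). Ppargc1a, the coactivator, changed by 0.79 ± 0.31, -0.72 ± 0.10 and -0.69 ± 0.20 at the 3 ages, called at 5 and 8 weeks (adjusted p = 8.3e-06 and 0.00884). Esrra, an estrogen-related receptor, was not called at 5 weeks (-0.18 ± 0.083, adjusted p = 0.0949) and fell at 8 weeks (-0.99 ± 0.10, adjusted p = 3.3e-06), a difference between effects that was itself called (-0.79 ± 0.13, adjusted p = 1.8e-05). Rxra changed by -0.18 ± 0.064 and -0.31 ± 0.10 (adjusted p = 0.0284 and 0.0141). Under scaling by library size the 5-week values of Esrra and Rxra turned to 0.029 and 0.026, and Rxra was not called at 8 weeks either (-0.14, adjusted p = 0.282). After ischemia-reperfusion Esrra (-0.33 ± 0.084) and Rxra (-0.32 ± 0.10) were lower, while Ppara (-0.40 ± 0.18) and Ppargc1a (0.05 ± 0.25) were not called. None of the 4 was called after infarction, with Ppara at -0.43 ± 0.18 and Ppargc1a at -0.46 ± 0.26.

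Markers of other cells moved with these groups, and their part in the members' changes was not tested. At 5 weeks 7 of 8 cardiomyocyte and 8 of 8 endothelial markers were lower, and 6 of 6 fibroblast and 6 of 6 macrophage markers were higher. The shares of all genes called lower and higher were 21.4% and 22.3% at 5 weeks and 29% and 30.8% at 8 weeks. They were 14.1% and 16.9% after ischemia-reperfusion and 4.77% and 6.62% after infarction. Macrophage markers summed to 347.3 to 384.4 CPM in wild type and 1557 to 2012 CPM in homozygous hearts at 5 weeks, and to 329 to 417.2 CPM and 1078 to 2093 CPM at 8 weeks. At 8 weeks 6 of 8 cardiomyocyte markers were lower, with sums of 64830 to 68920 CPM in wild type and 28900 to 42510 CPM in homozygous hearts, and 4 of 8 endothelial markers were lower and 4 higher. The endothelial list includes Fabp4 and Gpihbp1, which are also among the lipid genes above, and the cardiomyocyte list includes Pln. After ischemia-reperfusion 7 of 8 cardiomyocyte markers were lower and 6 of 6 macrophage markers higher. In infarcted hearts 4 of the 5 adipocyte markers tested were higher (Adipoq 4.32, Cidec 3.75, Plin1 3.72 and Cfd 3.43 on the log2 scale), with sums of 3.41 to 104.8 CPM against 2.28 to 12.3 CPM in shams, beside higher Fasn (1.90) and Scd1 (3.12).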

How the data were processed

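RNA from left ventricle was sequenced in bulk from 39 mice. Reads were aligned with STAR 2.7.3a to mm10 and counted per gene with featureCounts of Subread 2.0.0, per the submitters' processing notes, and a stranded mRNA kit was used, per the labels' protocols. Which annotation and strand option the counting used was not given in the sources used here. The deposited values are raw counts for 38293 genes, of which 36345 identifiers matched a symbol. Unnamed ones held 0.133% of counts. The members and gene lists were chosen with earlier results of these data known.

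Counts were tested in R 4.3.3 with edgeR 4.0.16 (quasi-likelihood F test, TMM scaling, filterByExpr, Benjamini-Hochberg over all genes tested, threshold 0.05). Each age and the surgery set had its own fit. Differences between effects and wild type ageing came from 1 fit of all 39 libraries. CPM are counts over the library total without TMM, log2 changes are TMM-scaled, and each SE was computed from the log2 change and its F. Exon lengths and overlaps came from GENCODE vM21 on GRCm38 (mm10). Per-library values were given for the 2 members of each step with the smallest p at 5 weeks, members called against their step, up to 5 members with the smallest p per injury, and the 2 with the largest change at 8 weeks. Values of some other members and of Plin5 and Ucp3 at 3 weeks were chosen after they were seen. The 53 pairs of replicates all differed beyond sampling noise. Alternatives used DESeq2 1.42.0, limma-voom (limma 3.58.1) with quality weights, RLE or library size scaling, other filters, other sets of libraries per fit, shams matched by age, a replicate block and leaving out each library. The fit was tested on simulated data.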

Additional observations from a re-analysis of the deposited data

Results flagged for a closer look

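Among 315 sets of 4 libraries (9 groups, 35 genes), 16 held a library far from the other 3 by Dixon's criterion, or 5.08%, where chance gives about 5%. Of the 16, 8 were low values of heterozygous replicate 2 at 8 weeks. These were Acadm at 783.2 CPM, Acads at 243.1 CPM, Hadha at 1300 CPM, Hadhb at 687.7 CPM, Etfa at 492.2 CPM, Etfdh at 526.9 CPM, Acot1 at 3.65 CPM and Ces1d at 64.6 CPM. The other 3 heterozygous hearts held 1067 to 1108 CPM of Acadm and 134.7 to 138.7 CPM of Ces1d. Homozygous replicate 3 at 5 weeks was high for Acadm (589.4 CPM) and Echs1 (304 CPM), and homozygous replicate 4 at 5 weeks for Acot1 (2.77 CPM). Low values were Etfa in homozygous replicate 3 at 3 weeks (435.4 CPM), Ces1d in wild type replicate 1 at 5 weeks (40.8 CPM), Slc27a1 in wild type replicate 3 at 5 weeks (160.8 CPM), and, after ischemia-reperfusion, Lpl in replicate 4 (5546 CPM) and Cpt2 in replicate 1 (147.4 CPM).

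The genotype effect differed between ages by an interaction test in edgeR. From 3 to 5 weeks the log2 effect moved by -1.82 for Acot1, -1.75 for Ces1d and -1.03 for Acaa2. From 5 to 8 weeks it moved by -2.76 for Ces1d, -1.34 for Ucp3 and -0.95 for Acaa2, and by 0.72 for Pnpla2, by 0.62 for Cpt1a and by 0.53 for Cd36. The genotype effect at 8 weeks differed from the infarction effect by -2.92 for Ces1d, -2.86 for Ucp3 and -1.30 for Acsl1.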

How the results depend on the processing

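The direction of each median over the 35 genes held in every setting for homozygous against wild type or heterozygous hearts at 5 and 8 weeks, and for each injury against sham. Scaling by library size moved medians to -0.69 (5 weeks), -1.0 (8 weeks), -0.93 (homozygous against heterozygous), -0.39 (ischemia-reperfusion) and -0.41 (5 minus 3 weeks). It called 15 genes lower for 5 minus 3 weeks, 14 for 8 minus 5 weeks and 5 higher in wild type ageing. Over all 14931 genes this scaling called 579 lower, 2545 lower and 578 higher, against 1387, 2066 and 706 with TMM. It called 1 higher in homozygous against heterozygous hearts, after ischemia-reperfusion, between the injuries and for 5 minus 3 weeks. DESeq2 called 1 gene lower at 3 weeks, 0 higher at 5 weeks and 5 higher in wild type ageing. Among all genes DESeq2 called 58 lower, 2859 higher and 777 higher in these. Without a filter 1 gene was lower at 3 weeks, and 1 higher after ischemia-reperfusion and for 5 minus 3 weeks. With all 39 libraries in the fit 1 was lower at 3 weeks and 0 higher at 5 weeks. With only the groups compared, 12 were higher in wild type ageing and 1 for 5 minus 3 weeks. Counts over all genes are not given here for these fits or for those with age-matched shams. limma-voom called 16 lower for 8 minus 5 weeks, 7 lower between the injuries and 9 higher in wild type ageing. Its calls over all genes in these 3 were 3114 lower, 1394 lower and 1313 higher. With edgeR and TMM those were 2066, 1203 and 706. limma-voom also called 1 of the 35 higher in homozygous against heterozygous hearts and for 8 weeks minus infarction. Age-matched shams gave 12 lower and a median of -0.46 after ischemia-reperfusion, a median of -0.55 after infarction, and 0 lower with a median of 0.083 between the injuries, where Plin5 turned to 0.096 (adjusted p = 0.924, edgeR). The causes were not tested.

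The replicate numbers did not pair the samples: correlations of same-numbered deviations reached 0.192 at most, and over 0.1 in 1 pair at 3 weeks and 0 elsewhere. With the replicate block 0 genes were higher at 8 weeks, where Angptl4 (adjusted p = 0.107), Cpt1a (0.0672) and Acot1 (0.0629, lower) were not called in edgeR, and 1 was higher between the injuries.

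Leaving out single libraries gave 0 to 1 genes higher at 5 weeks, 0 to 2 at 8 weeks, 0 to 2 in homozygous against heterozygous hearts, 0 to 1 after ischemia-reperfusion, 0 to 1 for 5 minus 3 weeks and 0 to 1 for 8 weeks minus infarction. It gave 4 to 20 lower after infarction and 2 to 8 between the injuries. For 8 minus 5 weeks 6 to 13 were lower and 0 to 3 higher, with medians from -0.31 to -0.088. For 8 weeks minus infarction the median ran from -0.84 to -0.66. Depth limited Acot1 most, which had as few as 15 counts in a library.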
